A study of Mus musculus with 13 samples.

Results

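DNA replication and S phase genes were followed across bone marrow arrays of transplanted mice. The set is a list of 38 gene symbols named for their role in copying DNA, and no threshold on signal entered the choice. A member was found by its symbol in the platform annotation, with the row of highest mean signal used where a symbol had several rows. In all, 37 of the 38 were measured, among 19505 genes with a symbol. The signal of Mcm7 was not analysed here. Each of the 37 also passed the filter on low signal, which kept 10601 genes.

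Marrow was taken from C57Bl/6J mice given 7 Gy and transplanted with LSK cells, a marrow fraction rich in stem and progenitor cells, from mice with a Cas9 knock-in. Cas9 cuts DNA where a guide RNA directs it, and the cells were transplanted 24 h after transduction with guides. Transduced cells carried the BRSST guide combination with a guide against Ezh2 (BRSST+sgEzh2, 4 arrays), the same combination with the control guide sgLuc (BRSST+sgLuc, 5 arrays), or sgLuc alone (sgLuc, 4 arrays). The labels do not spell BRSST out. Every group therefore shared Cas9, irradiation and transplantation, and the host's own surviving cells may be part of each sample. Harvest came at signs of leukemia or after 6 months, and the labels do not say which of these applied to which sample. Each array started from 2 ng of total RNA, amplified with 10 PCR cycles, and values are log2 signals, so a difference of 1 is a doubling. Nothing in the labels says that the arrays of a group came from separate mice, and p-values therefore speak only of spread among the arrays, part of which may be technical. In whole marrow, fewer cells in S phase and less of a transcript per cell cannot be told apart.

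Copying of the genome starts at origins that are licensed in G1 phase, when the origin recognition complex, Cdc6 and Cdt1 load the ring-shaped MCM helicase onto DNA. Cdc45 and the GINS complex then turn the ring into an active helicase, and polymerases held by the PCNA clamp copy the strands while nucleotide-making enzymes supply the building blocks. E2F transcription factors, held back by the retinoblastoma protein until cyclin-dependent kinases release them, switch on many of these genes at the entry to S phase. In marrow, the cells that divide most are progenitors of the erythroid, granulocyte and B cell lines, while mature neutrophils and resting lymphocytes have left the cell cycle.

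Promoters are shown for 3 of the 4 members that passed a test (Cdt1, Orc6 and Chaf1b) and for a pair of MCM genes, because E2F binding sites are a known feature of many such promoters. Windows were taken from RefSeq on GRCm38.p6, from 250 bases before to 50 bases after a gene's start, and 31 of the 38 listed symbols matched at least 1 window. Capitals mark E2F-type letters, searched on both strands as TTTCCCGC, TTTCGCGC, TTTGCCGC and TTTGGCGC, where matches to different words may overlap. The windows lie at chr8:122567765-122568064, + strand (Cdt1), chr8:85299382-85299681, + strand (Orc6), chr16:93883651-93883950, + strand (Chaf1b), chr8:75109259-75109558, + strand (Mcm5) and chr1:128359656-128359955, - strand (Mcm6), and each is written 5′ to 3′ along its gene.
Cdt1: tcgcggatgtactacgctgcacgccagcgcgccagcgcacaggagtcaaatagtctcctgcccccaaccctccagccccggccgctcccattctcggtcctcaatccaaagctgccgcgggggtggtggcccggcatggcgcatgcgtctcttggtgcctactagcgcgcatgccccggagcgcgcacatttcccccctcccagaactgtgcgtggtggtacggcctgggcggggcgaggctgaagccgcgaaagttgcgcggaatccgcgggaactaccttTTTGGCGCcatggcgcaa
Orc6: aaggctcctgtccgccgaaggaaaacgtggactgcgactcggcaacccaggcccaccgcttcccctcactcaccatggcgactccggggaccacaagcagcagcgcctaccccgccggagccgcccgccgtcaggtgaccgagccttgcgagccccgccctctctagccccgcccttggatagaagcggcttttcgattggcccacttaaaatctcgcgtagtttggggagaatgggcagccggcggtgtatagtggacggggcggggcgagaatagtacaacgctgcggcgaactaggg
Chaf1b: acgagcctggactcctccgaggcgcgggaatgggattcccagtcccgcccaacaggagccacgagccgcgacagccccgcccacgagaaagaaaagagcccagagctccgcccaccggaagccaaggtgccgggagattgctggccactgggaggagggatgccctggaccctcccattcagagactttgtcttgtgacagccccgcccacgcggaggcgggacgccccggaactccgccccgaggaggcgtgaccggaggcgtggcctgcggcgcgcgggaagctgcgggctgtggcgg
Mcm5: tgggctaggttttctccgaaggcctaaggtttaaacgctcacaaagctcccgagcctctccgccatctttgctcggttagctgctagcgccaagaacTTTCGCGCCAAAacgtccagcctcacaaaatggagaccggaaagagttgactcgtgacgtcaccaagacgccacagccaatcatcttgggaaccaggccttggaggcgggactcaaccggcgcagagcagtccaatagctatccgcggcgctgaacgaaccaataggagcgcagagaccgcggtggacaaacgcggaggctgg
Mcm6: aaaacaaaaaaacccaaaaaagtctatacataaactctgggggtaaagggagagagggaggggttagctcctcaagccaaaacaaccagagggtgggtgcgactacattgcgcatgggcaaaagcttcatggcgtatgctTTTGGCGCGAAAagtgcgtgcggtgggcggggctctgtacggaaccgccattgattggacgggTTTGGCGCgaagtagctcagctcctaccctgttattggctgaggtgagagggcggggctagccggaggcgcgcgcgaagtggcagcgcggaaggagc
Of 36 windows of members, 12 held at least 1 of these words (33.3%), compared with 744 of 32851 windows of all genes (2.26%). The 12 windows belong to 12 genes. They were Mcm3, Mcm5, Mcm6 and Mcm7 of the MCM ring, Orc1, Cdc6 and Cdt1 of the licensing step, Pola1, Pold1, Rfc3, Lig1 and Uhrf1. The Mcm6 window held 3 matches, between positions 141 and 211 of the window, and the Mcm5 window held an overlapping pair between positions 98 and 109. The CCAAT box, searched on both strands, was found in 21 of the 36 windows (58.3%), compared with 37.4% of all windows. A match is a run of letters, and binding was not measured here. For Orc6 and Chaf1b the search says only that these words are not in these 300 bases.

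Median log2 signal ran from 7.19 to 7.32 over the 13 arrays. Ezh2, the methyltransferase targeted by the added guide, had log2 signals of 8.08 to 9.22 in BRSST+sgEzh2 marrow, 9.15 to 10.46 in BRSST+sgLuc marrow and 9.94 to 10.55 in sgLuc marrow. Its difference between BRSST+sgEzh2 and BRSST+sgLuc was -1.05 ± 0.26 (limma adjusted p = 0.0808). Against sgLuc it was -1.57 ± 0.28 in BRSST+sgEzh2 marrow (limma adjusted p = 0.00306) and -0.53 ± 0.26 in BRSST+sgLuc marrow (limma adjusted p = 0.172). The labels name no batch of arrays. Running numbers in the sample descriptions are consecutive through both BRSST groups and skip ahead for sgLuc, and whether sgLuc arrays were handled apart was not tested. Mean log2 signal of 3 measured Y-linked genes was 7.07, 7.34, 4.69 and 4.72 on the BRSST+sgEzh2 arrays, 7.13, 4.99, 5.16, 6.88 and 4.71 on the BRSST+sgLuc arrays and 7.45, 7.32, 6.72 and 7.18 on the sgLuc arrays, so it was low on replicates 3 and 4 of BRSST+sgEzh2, on replicates 2, 3 and 5 of BRSST+sgLuc and on no array of sgLuc. Of the BRSST+sgLuc arrays, replicates 2 and 3 stood apart in the replication genes and in lists of related genes, as described below. Several differences between groups that rest on them are given with and without them. The spread within groups is given only with them.

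BRSST+sgLuc marrow, set against sgLuc marrow, asks what the BRSST guides change. Of the 37 replication genes 4 rose, namely Cdt1, Gmnn, Orc6 and Chaf1b, by 1.25-fold to 1.63-fold, and 0 fell. That is 10.8% of the members, where 22.5% of all 10601 genes tested passed, 10.8% higher and 11.7% lower. In BRSST+sgLuc marrow 14 members were above and 23 below their sgLuc mean, where 5414 of 10601 genes were above. The members' median log2 difference was -0.07, against 0.01 over all genes. The median was 0.047 without BRSST+sgLuc replicate 2 and -0.152 without replicate 3. At an unadjusted p under 0.05, limma had 6 of 37 members, where 3723 of 10601 genes reached it. Each adjusted p here is from limma's moderated test with Benjamini-Hochberg adjustment over all genes, and errors of differences are standard errors on the log2 scale.

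Of the 5 licensing genes, 3 rose in BRSST+sgLuc marrow. Cdt1, which brings the MCM ring to origins, had log2 signals of 9.72, 9.96, 9.61 and 9.93 in BRSST+sgEzh2 marrow, 10.09, 9.41, 10.22, 10.05 and 10.38 in BRSST+sgLuc marrow and 9.33, 9.51, 9.53 and 9.57 in sgLuc marrow. Of the 5 BRSST+sgLuc arrays 4 lay above every sgLuc array, and replicate 2 lay among them. Its difference was 0.54 ± 0.16 (95% interval 0.19 to 0.90), a 1.46-fold rise (limma adjusted p = 0.0295). Gmnn encodes geminin, which binds Cdt1 and blocks a further round of licensing within the same cycle. Its log2 signals were 8.99, 9.18, 8.70 and 8.79 in BRSST+sgEzh2 marrow, 9.16, 9.12, 9.27, 8.82 and 8.79 in BRSST+sgLuc marrow and 8.38, 8.65, 8.23 and 8.84 in sgLuc marrow. BRSST+sgLuc arrays were mostly the higher ones, with replicates 4 and 5 just under the top sgLuc array. Gmnn rose by 0.50 ± 0.15 or 1.42-fold (95% interval 0.18 to 0.83, limma adjusted p = 0.0297). Cdt1 and its inhibitor were thus both higher.

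Orc6, a subunit of the origin recognition complex, gave 10.13, 10.26, 9.97 and 10.06 in BRSST+sgEzh2 marrow, 10.25, 10.06, 10.48, 10.23 and 10.02 in BRSST+sgLuc marrow and 9.80, 9.95, 9.89 and 9.92 in sgLuc marrow. All 5 BRSST+sgLuc arrays lay above all 4 sgLuc arrays. It was the member whose groups did not overlap, 1 of 37, where 9.09% of all genes had BRSST+sgLuc wholly above sgLuc. The rise was 0.32 ± 0.11 or 1.25-fold (95% interval 0.09 to 0.56, limma adjusted p = 0.0484). Orc1, the ATPase subunit that anchors the complex, differed by 0.18 ± 0.23 (limma adjusted p = 0.648), and Cdc6, its partner ATPase in loading, by -0.09 ± 0.23 (limma adjusted p = 0.815). The Cdc6 arrays spread widely in BRSST+sgLuc marrow, from 8.07 to 9.53, against 8.66 to 9.02 in sgLuc marrow.

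Chaf1b, a subunit of the CAF-1 complex that places histones on newly copied DNA, had log2 signals of 8.27, 8.62, 7.87 and 8.56 in BRSST+sgEzh2 marrow, 9.20, 8.25, 9.24, 8.39 and 8.97 in BRSST+sgLuc marrow and 8.11, 8.10, 7.79 and 8.42 in sgLuc marrow. Replicates 1, 3 and 5 of BRSST+sgLuc were high, while replicates 2 and 4 lay below the top sgLuc array. The rise of 0.70 ± 0.23 (95% interval 0.22 to 1.19) was 1.63-fold (limma adjusted p = 0.0383). Chaf1a, the other CAF-1 subunit in the set, differed by 0.16 ± 0.14 (limma adjusted p = 0.458). Uhrf1, which reads half-methylated DNA behind the fork and recruits the maintenance methyltransferase, differed by -0.35 ± 0.19 (limma adjusted p = 0.206), and Slbp, which binds the stem-loop of histone mRNA, by -0.07 ± 0.11 (limma adjusted p = 0.697).

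**Figure D1:**
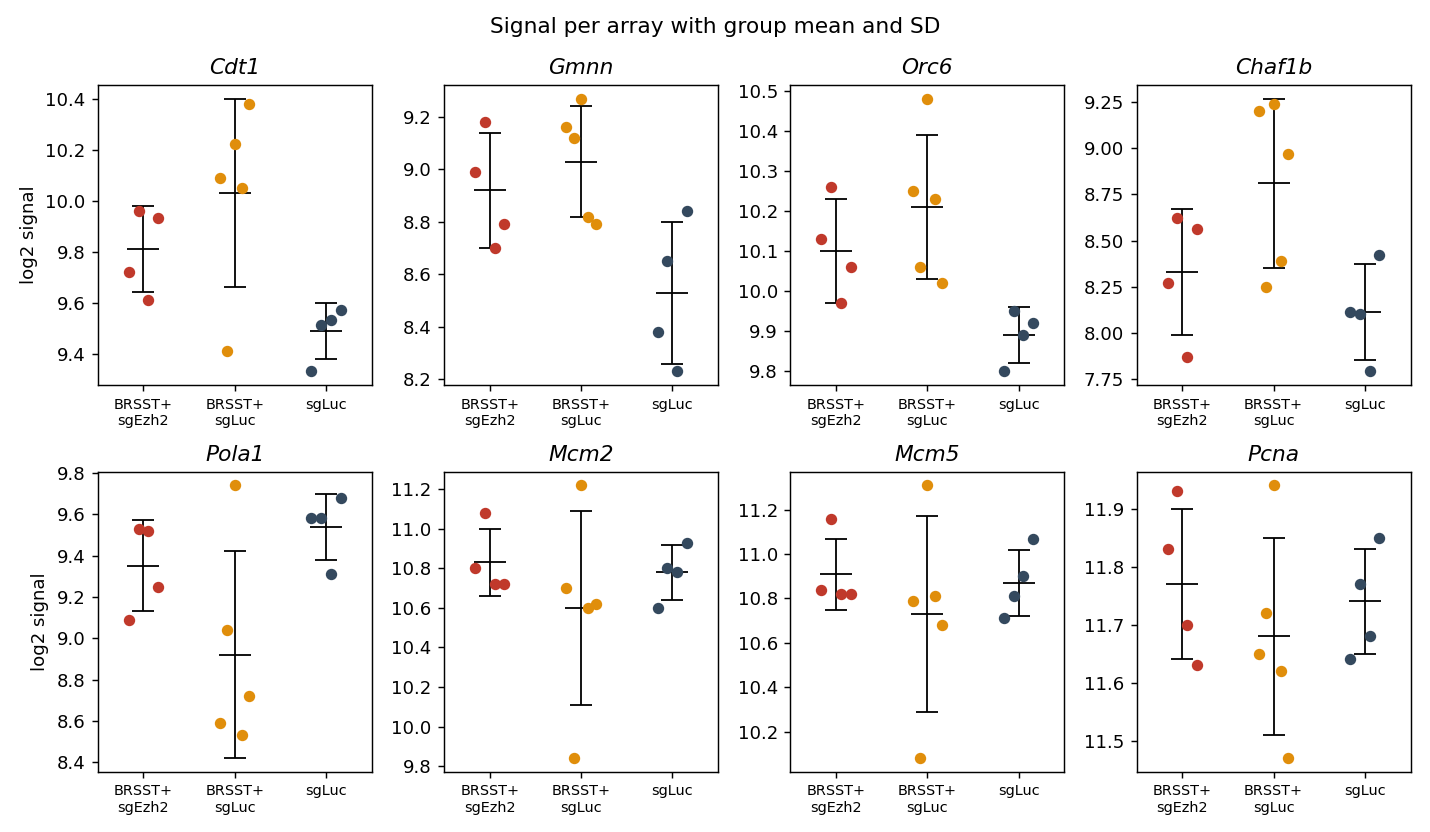
Log2 signal on the y axis of Cdt1, Gmnn, Orc6, Chaf1b, Pola1, Mcm2, Mcm5 and Pcna on each array (points), with the group mean and SD (bars), for BRSST+sgEzh2 (n = 4), BRSST+sgLuc (n = 5) and sgLuc (n = 4), each panel on its own scale. Orc6 is the gene of these 8 whose BRSST+sgLuc arrays all lie above the sgLuc arrays, and in the MCM panels 1 BRSST+sgLuc array lies far below and 1 above the rest.

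These 4 calls sat close to the threshold. With 1 array of the comparison left out in turn, Gmnn kept its call in 5 of 9 fits, Chaf1b in 3, Orc6 in 2 and Cdt1 in 1, with adjusted p of up to 0.0942, 0.109, 0.137 and 0.0928. Cdt1 passed only without BRSST+sgLuc replicate 2, and Orc6 only without BRSST+sgLuc replicate 2 or 5. Chaf1b passed without BRSST+sgLuc replicate 2 or 4 or sgLuc replicate 4. Gmnn lost its call without BRSST+sgLuc replicate 1 (0.0706) or 3 (0.0593) or sgLuc replicate 1 (0.0942) or 3 (0.0922). The number of members called, which can include others than these 4, was 0 without BRSST+sgLuc replicate 1, sgLuc replicate 1 or sgLuc replicate 3. It was 1 without BRSST+sgLuc replicate 3 (Pola1, lower, with all 4 calls lost) or sgLuc replicate 2 (Gmnn). It was 2 without replicate 4 of either group (Gmnn and Chaf1b). Without BRSST+sgLuc replicate 5 it was 4, namely Gmnn, Orc6, Gins1 and Rfc4, while Cdt1 (0.051) and Chaf1b (0.0601) missed the threshold. Without BRSST+sgLuc replicate 2 it was 6, with Rpa2 and Tk1 beside these 4 calls. The share of all genes called moved too, from 14% without sgLuc replicate 1 to 26.8% without BRSST+sgLuc replicate 5. It was 23.2% without BRSST+sgLuc replicate 3 and 15.7% without sgLuc replicate 2. It was 16.9% without BRSST+sgLuc replicate 4 and 17.6% without sgLuc replicate 4. Without BRSST+sgLuc replicate 2 it was 26.4%, where 16.2% of the members passed. Fitted on these groups alone, Gmnn passed while Cdt1 (0.0553), Orc6 (0.0772) and Chaf1b (0.0532) did not. With the Y-linked signal as a covariate, Cdt1 (0.0684) and Chaf1b (0.0555) lost their calls. The replicate number as a block ended those of Cdt1 (0.0804), Orc6 (0.0541) and Chaf1b (0.101) and left that of Gmnn. Orc6 also missed the threshold with no filter (0.0698) or a trended variance (0.0506), and Chaf1b with no filter (0.0517).

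The MCM helicase ring, whose subunits unwind DNA ahead of the fork, passed in none of its 5 measured members, with limma adjusted p from 0.331 to 0.756 and 0 of the 5 at an unadjusted p under 0.05. Mcm2 had log2 signals of 10.80, 11.08, 10.72 and 10.72 in BRSST+sgEzh2 marrow, 10.70, 9.84, 11.22, 10.60 and 10.62 in BRSST+sgLuc marrow and 10.60, 10.80, 10.78 and 10.93 in sgLuc marrow. Mcm3 had 10.08, 10.55, 10.16 and 10.22 in BRSST+sgEzh2 marrow, 10.10, 9.49, 10.80, 10.03 and 10.15 in BRSST+sgLuc marrow and 10.00, 10.22, 10.20 and 10.47 in sgLuc marrow. For Mcm4 they were 9.55, 9.58, 9.41 and 9.64 in BRSST+sgEzh2 marrow, 9.36, 8.13, 9.78, 8.69 and 9.45 in BRSST+sgLuc marrow and 9.57, 9.62, 9.04 and 9.66 in sgLuc marrow. In all 3 genes the BRSST+sgLuc arrays held both the top and the bottom value of the whole series, replicate 3 and replicate 2. Mcm5 gave 10.84, 11.16, 10.82 and 10.82 in BRSST+sgEzh2 marrow, 10.79, 10.08, 11.31, 10.81 and 10.68 in BRSST+sgLuc marrow and 10.71, 10.81, 10.90 and 11.07 in sgLuc marrow. Mcm6 gave 10.95, 11.14, 10.87 and 10.80 in BRSST+sgEzh2 marrow, 10.87, 10.24, 11.31, 10.60 and 10.95 in BRSST+sgLuc marrow and 10.84, 11.03, 10.71 and 11.06 in sgLuc marrow. The same arrays were the extremes there, so that the groups overlapped for every ring gene. Differences from sgLuc were -0.18 ± 0.20 for Mcm2, -0.11 ± 0.20 for Mcm3, -0.39 ± 0.27 for Mcm4, -0.14 ± 0.19 for Mcm5 and -0.12 ± 0.18 for Mcm6. The interval of Mcm4, -0.96 to 0.18 on the log2 scale, is wide, and equal levels are not shown by a p that missed the threshold. Without BRSST+sgLuc replicate 2 the differences of Mcm2 (0.011), Mcm3 (0.047), Mcm5 (0.027) and Mcm6 (0.023) were above 0, and that of Mcm4 was -0.154.

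Helicase activators did not pass either, except for Gins1 in alternatives given below. Cdc45, which joins the ring to form the active helicase, had log2 signals of 8.90, 8.96, 8.50 and 9.15 in BRSST+sgEzh2 marrow, 8.85, 7.83, 9.04, 8.48 and 8.65 in BRSST+sgLuc marrow and 8.62, 8.61, 8.95 and 8.67 in sgLuc marrow. BRSST+sgLuc replicate 2 was the low array and the other 12 lay between 8.48 and 9.15. Gins1, a subunit of the GINS complex, gave 9.36, 10.04, 9.09 and 9.46 in BRSST+sgEzh2 marrow, 9.51, 9.82, 9.88, 9.26 and 8.51 in BRSST+sgLuc marrow and 8.75, 9.06, 8.47 and 9.30 in sgLuc marrow. Replicates 2 and 3 of BRSST+sgLuc and replicate 2 of BRSST+sgEzh2 were its high arrays, and all groups overlapped. The Gins1 difference was 0.50 ± 0.27 (95% interval -0.08 to 1.08, limma adjusted p = 0.212) and that of Cdc45 was -0.14 ± 0.21 (limma adjusted p = 0.689). Without BRSST+sgLuc replicate 5 Gins1 was at 0.72 and passed (0.0294), as it did with the replicate block (0.72, 0.0317). Gins2 differed by 0.15 ± 0.22 (limma adjusted p = 0.684), and Mcm10, which helps to start the activated helicase, by -0.19 ± 0.19 (limma adjusted p = 0.54).

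Among the polymerase genes, Pola1, the catalytic subunit of the polymerase that starts each new strand, lay just outside the threshold and on the low side. Its log2 signals were 9.09, 9.53, 9.52 and 9.25 in BRSST+sgEzh2 marrow, 8.59, 9.04, 9.74, 8.53 and 8.72 in BRSST+sgLuc marrow and 9.58, 9.58, 9.31 and 9.68 in sgLuc marrow. BRSST+sgLuc replicates 1, 2, 4 and 5 lay below every sgLuc array, while replicate 3 was the top array of the series. The difference was -0.61 ± 0.21 (95% interval -1.07 to -0.16, limma adjusted p = 0.0502). Without BRSST+sgLuc replicate 3 it was -0.82 and Pola1 passed (0.00185), the only member to do so in that fit. Pola1 is on the X chromosome, and with the Y-linked signal as a covariate it was at -0.78 (0.0477). It also passed with a stricter filter (0.0385), quantile normalization (0.0463), a trended variance (0.0453) and array quality weights (0.000497). Pole, the leading strand polymerase, averaged 8.76 ± 0.89 (SD, n = 5) in BRSST+sgLuc marrow, with replicate 2 at 7.31, and 9.26 ± 0.21 (SD, n = 4) in sgLuc marrow, a difference of -0.49 ± 0.34 (limma adjusted p = 0.338). Prim1, the primase that lays down RNA primers, was at -0.00 ± 0.24, and Pold1, the lagging strand polymerase, at -0.03 ± 0.13 (limma adjusted p = 0.994 and 0.887). The small differences of Prim1 and Pold1 turned above 0 with array medians set equal (0.036 and 0.006).

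Pcna encodes the sliding clamp that tethers polymerases to DNA. Its log2 signals were 11.83, 11.93, 11.70 and 11.63 in BRSST+sgEzh2 marrow, 11.65, 11.72, 11.94, 11.62 and 11.47 in BRSST+sgLuc marrow and 11.64, 11.77, 11.68 and 11.85 in sgLuc marrow. The arrays of all groups lay within 11.47 to 11.94, with a difference of -0.06 ± 0.11 (95% interval -0.29 to 0.18, limma adjusted p = 0.761). Rfc2, a subunit of the clamp loader, gave 9.81, 10.15, 9.97 and 9.77 in BRSST+sgEzh2 marrow, 9.84, 10.25, 10.35, 9.87 and 9.77 in BRSST+sgLuc marrow and 10.21, 10.17, 10.26 and 10.37 in sgLuc marrow. BRSST+sgLuc replicates 2 and 3 lay among the sgLuc arrays and replicates 1, 4 and 5 lay below them, with a difference of -0.23 ± 0.14 (limma adjusted p = 0.242). The other loader genes differed by 0.24 ± 0.15 (Rfc3), 0.27 ± 0.16 (Rfc4) and -0.07 ± 0.22 (Rfc5), with limma adjusted p of 0.279, 0.28 and 0.852. Rfc4 was at 0.41 and passed without BRSST+sgLuc replicate 5 (0.0324), and it passed with the replicate block (0.0439) and with array quality weights (0.0205).

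Rpa2, a subunit of the protein that coats single-stranded DNA, had log2 signals of 9.92, 10.04, 9.77 and 9.75 in BRSST+sgEzh2 marrow, 9.86, 9.10, 10.10, 9.98 and 10.02 in BRSST+sgLuc marrow and 9.42, 9.25, 9.63 and 9.46 in sgLuc marrow. Of the BRSST+sgLuc arrays 4 lay above every sgLuc array and replicate 2 lay below all of them. Its difference was 0.37 ± 0.18 (limma adjusted p = 0.153). Fen1, the nuclease that trims the flaps of lagging strand fragments, differed by 0.26 ± 0.24, and Lig1, the ligase that joins the fragments, by -0.08 ± 0.12 (limma adjusted p = 0.501 and 0.709). Of the nucleotide supply genes, Tk1, the thymidine salvage kinase, was at 0.29 ± 0.12 (limma adjusted p = 0.11). Both ribonucleotide reductase subunits, Rrm1 at -0.12 ± 0.25 and Rrm2 at -0.20 ± 0.19, and Tyms, thymidylate synthase, at 0.09 ± 0.18, had limma adjusted p from 0.499 to 0.788.

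The regulators of S phase entry overlapped between all groups. E2f1, the transcription factor, had log2 signals of 7.79, 7.61, 7.82 and 7.94 in BRSST+sgEzh2 marrow, 7.76, 7.46, 7.93, 7.48 and 7.50 in BRSST+sgLuc marrow and 7.56, 7.67, 7.64 and 7.74 in sgLuc marrow. Ccne1 and Ccne2 encode the cyclins that activate Cdk2 at this step. Ccne1 gave 10.48, 10.69, 10.62 and 10.32 in BRSST+sgEzh2 marrow, 10.36, 10.11, 10.93, 10.48 and 10.14 in BRSST+sgLuc marrow and 10.31, 10.60, 10.51 and 10.64 in sgLuc marrow. Ccne2 gave 10.19, 10.16, 10.31 and 10.17 in BRSST+sgEzh2 marrow, 10.09, 9.73, 10.52, 10.14 and 9.67 in BRSST+sgLuc marrow and 10.11, 10.27, 9.99 and 10.19 in sgLuc marrow. In each of these genes BRSST+sgLuc had both the lowest array and, with the exception of E2f1, the highest. BRSST+sgLuc differed from sgLuc by -0.03 ± 0.12 for E2f1, -0.11 ± 0.16 for Ccne1 and -0.11 ± 0.15 for Ccne2, with limma adjusted p of 0.908, 0.683 and 0.663. The E2f1 difference turned to 0.022 with quantile normalization and to 0.014 with array medians set equal.

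**Figure D2:**
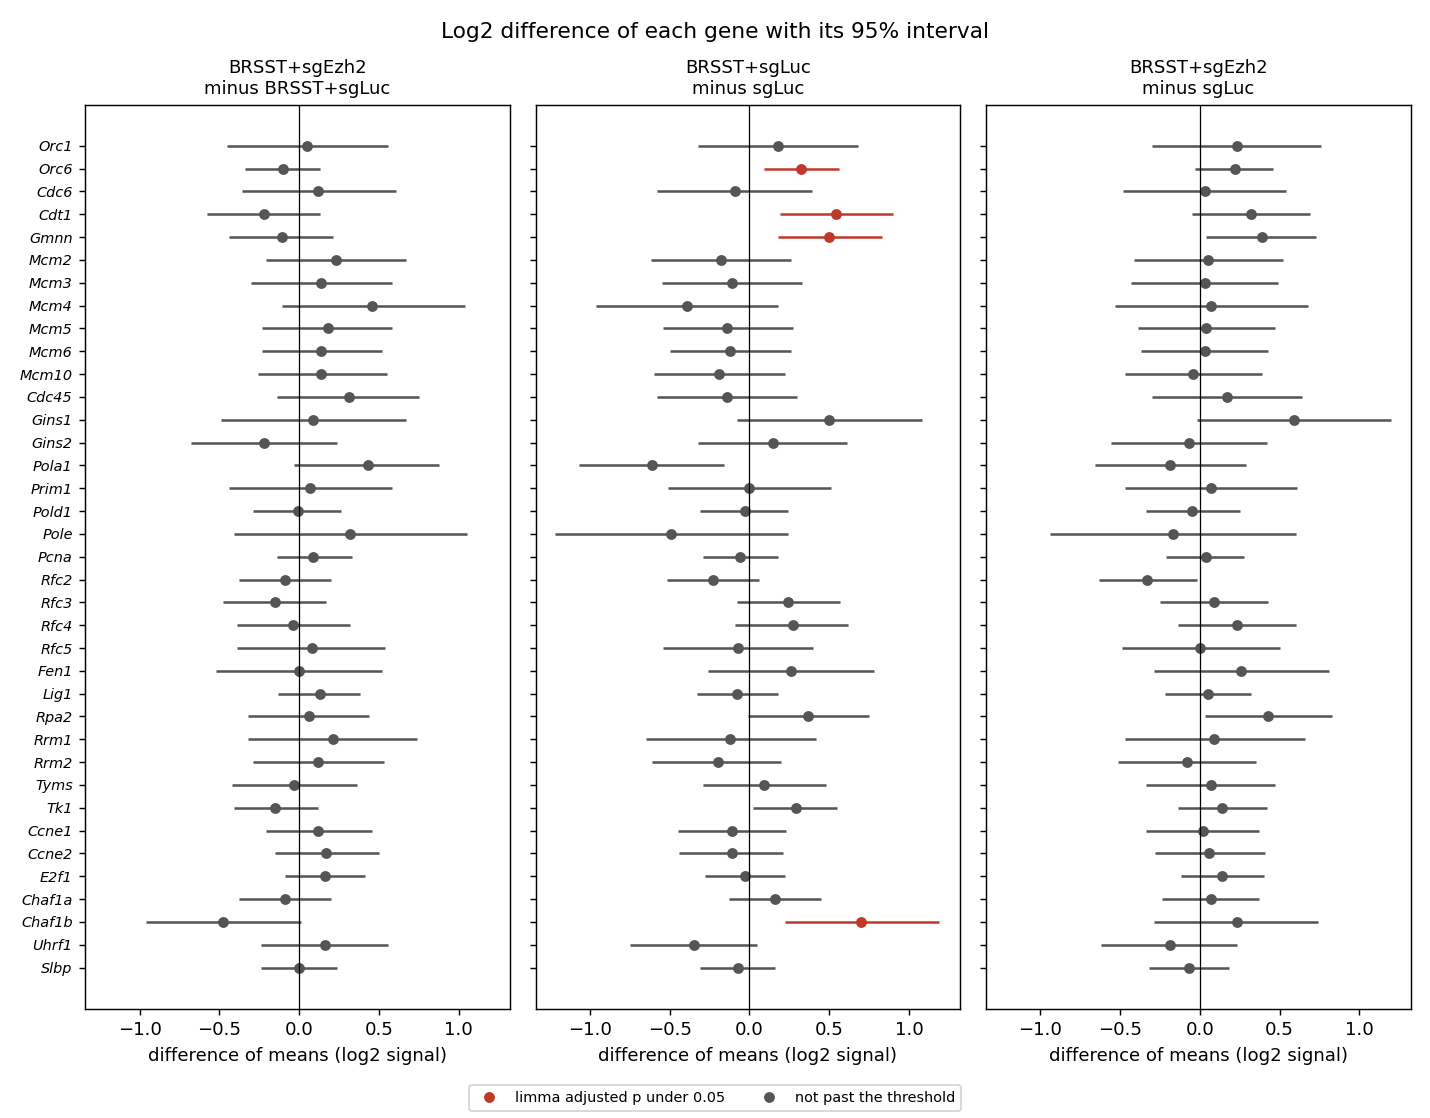
Difference of group means (log2 signal, x axis) with its 95% interval for each of 37 genes (rows) in BRSST+sgEzh2 minus BRSST+sgLuc, BRSST+sgLuc minus sgLuc and BRSST+sgEzh2 minus sgLuc. Red marks a limma adjusted p under 0.05, reached by Orc6, Cdt1, Gmnn and Chaf1b in BRSST+sgLuc minus sgLuc and by none of the 37 in the other comparisons.

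BRSST+sgEzh2 marrow, set against BRSST+sgLuc marrow, asks what the Ezh2 guide adds. None of the 37 replication genes passed limma's test, and 0 reached an unadjusted p under 0.05, where 0.783% of all genes tested passed, 0.67% higher and 0.113% lower, and 1472 of 10601 reached an unadjusted p under 0.05. Of the members 25 were above and 12 below their BRSST+sgLuc mean, where 5576 of 10601 genes were above. The members' median log2 difference was 0.09, against 0.01 over all genes. That median was -0.027 without BRSST+sgLuc replicate 2 and 0.210 without replicate 3. The 95% intervals had a median half-width of 0.40 and lay within a 2-fold change either way for 35 of 37 genes. These half-widths are not a limit of detection, since a change larger than them could also miss the adjusted threshold. They depend on the spread within groups as well as on the number of arrays. Signals overlapped between the groups for every member, where 2.52% of all genes had BRSST+sgEzh2 wholly above BRSST+sgLuc and 1.01% wholly below. These arrays of BRSST+sgLuc are also those of the comparison above, so the values of both comparisons are not independent.

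The members with the smallest p were Chaf1b, Pola1, Mcm4 and Cdc45, whose values by array are given above. Chaf1b was lower in BRSST+sgEzh2, by log2 -0.48 ± 0.23 (95% interval -0.96 to 0.01, limma adjusted p = 0.365), and averaged 8.33 ± 0.34 (SD, n = 4) in BRSST+sgEzh2 marrow and 8.81 ± 0.46 (SD, n = 5) in BRSST+sgLuc marrow. Pola1 averaged 9.35 ± 0.22 (SD, n = 4) in BRSST+sgEzh2 marrow and 8.92 ± 0.50 (SD, n = 5) in BRSST+sgLuc marrow, a difference of 0.43 ± 0.21 (95% interval -0.03 to 0.88, limma adjusted p = 0.392). Without BRSST+sgLuc replicate 3 the Pola1 difference was 0.63 and passed (0.0324). All 4 BRSST+sgEzh2 arrays of Pola1 lay above replicates 1, 2, 4 and 5 of BRSST+sgLuc. Mcm4 differed by 0.46 ± 0.27 (95% interval -0.11 to 1.04, limma adjusted p = 0.471) and Cdc45 by 0.31 ± 0.21 (95% interval -0.14 to 0.75, limma adjusted p = 0.553). For Mcm4 the BRSST+sgEzh2 arrays lay close together, at 9.41 to 9.64, against 8.13 to 9.78 in BRSST+sgLuc marrow.

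The remaining ring genes differed by 0.23 (Mcm2), 0.14 (Mcm3), 0.18 (Mcm5) and 0.14 (Mcm6) on the log2 scale. Without BRSST+sgLuc replicate 2, which was the low array in each, these came to 0.044, -0.016, 0.012 and 0.005. Of the genes that rose in BRSST+sgLuc against sgLuc, Cdt1 differed by -0.22 ± 0.16, Gmnn by -0.11 ± 0.15 and Orc6 by -0.10 ± 0.11, with limma adjusted p of 0.595, 0.8 and 0.732. Pcna differed by 0.09 ± 0.11, E2f1 by 0.16 ± 0.12, Ccne1 by 0.12 ± 0.16 and Ccne2 by 0.17 ± 0.15 (limma adjusted p from 0.576 to 0.786).

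BRSST+sgEzh2 marrow against sgLuc marrow likewise had 0 of 37 members past the threshold, where 9.37% of all genes tested passed, 5.51% higher and 3.86% lower. In limma 3 of 37 members had an unadjusted p under 0.05, where 2575 of 10601 genes did. Of the members 28 were above and 9 below their sgLuc mean, where 5697 of 10601 genes were above. Members tended to move together on single arrays, as described below, so such counts are not of separate observations. The members' median log2 difference was 0.06, against 0.02 over all genes. It was -0.016 without BRSST+sgEzh2 replicate 2. Signals of BRSST+sgEzh2 lay wholly above sgLuc for Orc6, Cdt1, Rpa2 and Tk1, 4 of 37 members, where 14.2% of all genes did so. They lay wholly below for Rfc2, 1 of 37, where 9.06% of all genes did so. Intervals had a median half-width of 0.42 and lay within a 2-fold change for 36 of 37 members. Their errors use 1 spread per gene over all 3 groups. BRSST+sgLuc, which is not compared here, had the largest median SD of members, 0.41. That SD was 0.17 for BRSST+sgEzh2 and 0.15 for sgLuc. The half-width and the 0 of 37 thus rest in part on arrays outside the comparison. With only these groups fitted, 1 of 37 members passed, where 17.2% of all genes did.

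Gmnn had the smallest p in this comparison, with a difference of 0.39 ± 0.16 (95% interval 0.04 to 0.73, limma adjusted p = 0.152). Rpa2 differed by 0.43 ± 0.19 (95% interval 0.03 to 0.83, limma adjusted p = 0.171), and it passed when these groups alone were fitted (0.0277). Rfc2 was lower by log2 -0.33 ± 0.14 (95% interval -0.63 to -0.02, limma adjusted p = 0.172), and Gins1 was at 0.59 ± 0.29 (95% interval -0.02 to 1.20, limma adjusted p = 0.223). The levels of these genes on each array are given above. Ring genes lay close to sgLuc, with differences of 0.05 (Mcm2), 0.03 (Mcm3), 0.07 (Mcm4), 0.04 (Mcm5) and 0.03 (Mcm6). Among the other genes called in BRSST+sgLuc against sgLuc, Cdt1 was at 0.32 ± 0.17, Orc6 at 0.22 ± 0.12 and Chaf1b at 0.23 ± 0.24 (limma adjusted p = 0.281, 0.271 and 0.637). Both comparisons with sgLuc use the same 4 control arrays.

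By group mean, the order was BRSST+sgEzh2, sgLuc, BRSST+sgLuc from high to low for 15 members, and BRSST+sgLuc, BRSST+sgEzh2, sgLuc for 9. Another 6 had sgLuc, BRSST+sgEzh2, BRSST+sgLuc and 4 had BRSST+sgEzh2, BRSST+sgLuc, sgLuc. The other 3 were BRSST+sgEzh2 last, in 1 member with BRSST+sgLuc first and in 2 with sgLuc first. Groups next to each other in these orders did not differ past the threshold for any of the 37 genes, so the order is a description of means.

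Replication genes varied more between arrays of BRSST+sgLuc than between arrays of the other groups. For the members the median SD came to 0.17 on BRSST+sgEzh2 arrays, 0.41 on BRSST+sgLuc arrays and 0.15 on sgLuc arrays. Over all genes tested it came to 0.19 on BRSST+sgEzh2 arrays, 0.25 on BRSST+sgLuc arrays and 0.15 on sgLuc arrays. For 34 of the 37 members the SD was highest in BRSST+sgLuc, against 59.2% of all genes. These SDs were not computed without BRSST+sgLuc replicates 2 and 3, so the part of those arrays in the spread was not tested. The mean log2 signal of the 37 genes was 9.55, 9.74, 9.47 and 9.55 on the BRSST+sgEzh2 arrays, 9.61, 9.12, 9.98, 9.40 and 9.46 on the BRSST+sgLuc arrays and 9.42, 9.52, 9.40 and 9.65 on the sgLuc arrays. BRSST+sgLuc thus held both the highest array, replicate 3, and the lowest, replicate 2.

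**Figure D3:**
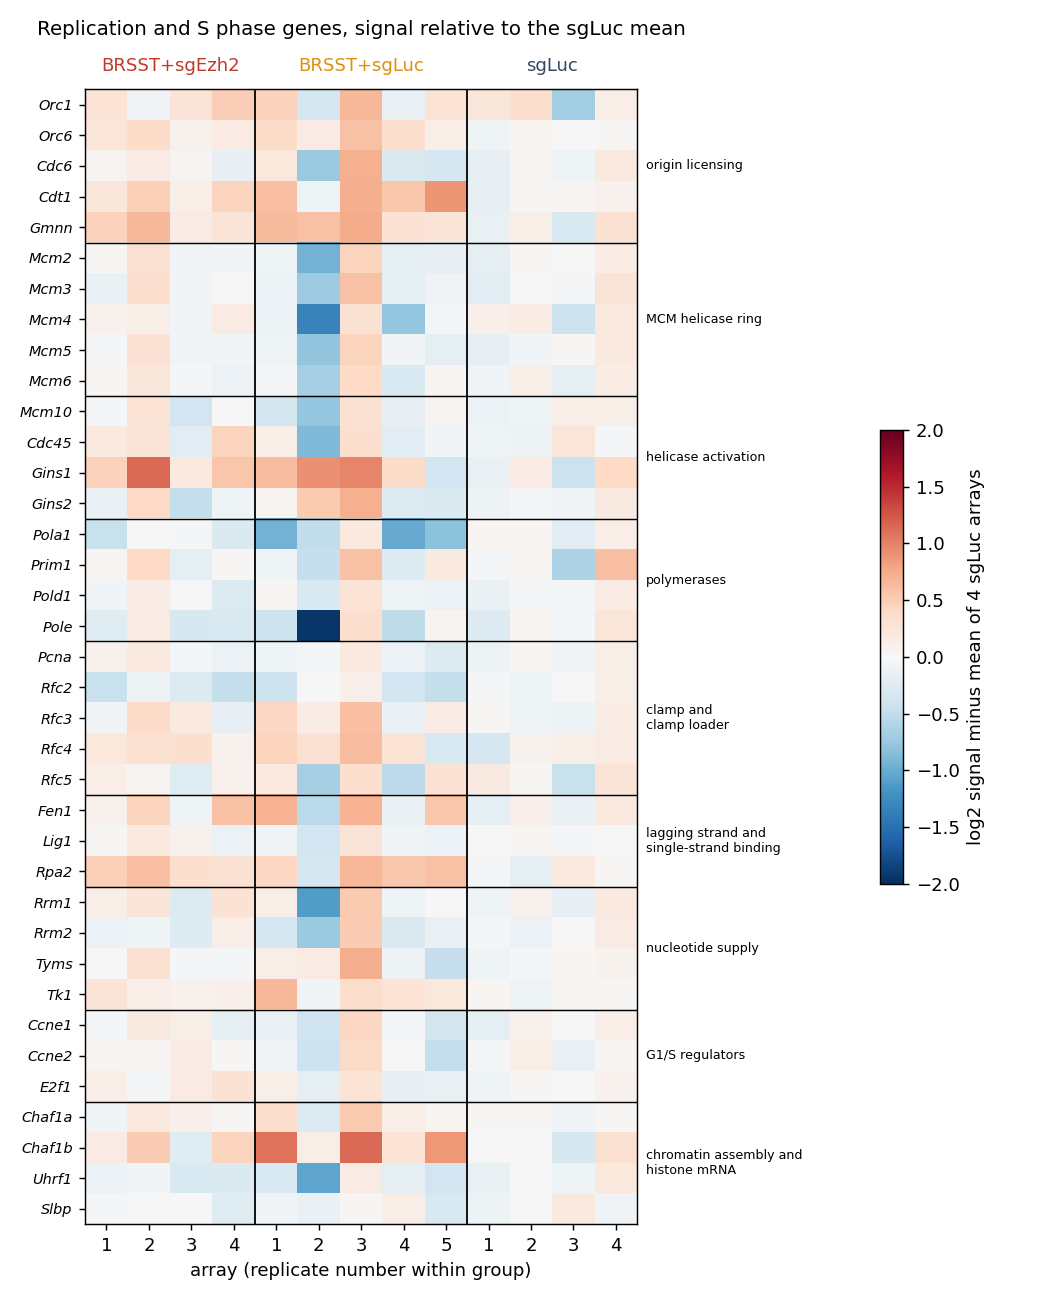
Log2 signal minus the mean of the 4 sgLuc arrays (colour) for 37 genes (rows, by role) on 13 arrays (columns, by group and replicate). The columns of BRSST+sgLuc replicates 2 and 3 hold the strongest colours of the BRSST+sgLuc group, blue for most genes in replicate 2 and red in replicate 3.

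Replicate 3 was the highest BRSST+sgLuc array for 34 of 37 members (91.9%), against 20.8% of all genes tested, and lay above the mean of the other 4 arrays for 37 of 37, by a median of log2 0.60. Replicate 2 was the lowest for 25 members (67.6%), against 31.3% of all genes, and its difference from the mean of the others had a median of -0.57. Pole (-1.82), Rrm1 (-1.25), Mcm4 (-1.19), Fen1 (-0.99), Mcm2 (-0.95) and Cdc45 (-0.92) were farthest below it. That array was not low in every replication gene. It lay above the mean of the others for 8 of 37, namely Rfc4, Pcna, Tyms, Gmnn, Pola1, Rfc2, Gins2 and Gins1, by 0.04 to 0.53. Gins1 and Gins2, subunits of the same complex, were the most raised of these (0.53 and 0.48). Replicate 5 was the lowest array for another 10 members (27%), and Cdt1 was highest there. Within the other groups, BRSST+sgEzh2 replicate 2 lay above its group mean for 32 of 37 members and sgLuc replicate 4 for 34 of 37, by means of 0.17 and 0.16.

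**Figure D4:**
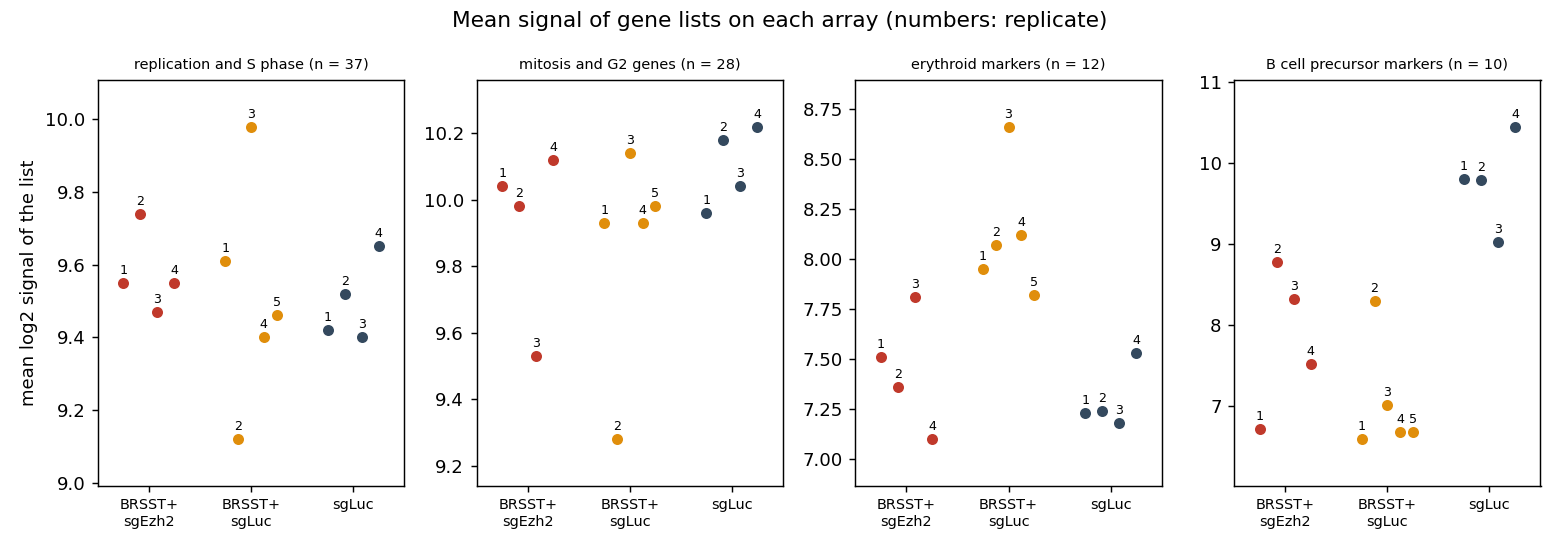
Mean log2 signal (y axis) of 37 replication and S phase genes, 28 mitosis and G2 genes, 12 erythroid markers and 10 B cell precursor markers on each array, with the replicate number at each point, for BRSST+sgEzh2, BRSST+sgLuc and sgLuc. BRSST+sgLuc replicate 2 is the lowest array for the replication (9.12) and mitosis (9.28) genes, and replicate 3 is the highest for the replication genes (9.98) and the erythroid markers (8.66).

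Markers of marrow cell types differed between groups to an extent that varied by list. The counts of markers called in BRSST+sgLuc against sgLuc stand beside 22.5% of all genes called there. The mean of 12 measured erythroid markers of 16 was 7.10 to 7.81 on BRSST+sgEzh2 arrays, 7.82 to 8.66 on BRSST+sgLuc arrays and 7.18 to 7.53 on sgLuc arrays, with the top value on BRSST+sgLuc replicate 3. In BRSST+sgLuc against sgLuc 4 of 9 tested erythroid markers rose and 0 fell. All 9 had a lower mean in BRSST+sgEzh2 than in BRSST+sgLuc, with a median log2 difference of -0.77, and 0 passed there. The mean of 10 measured B cell precursor markers of 12 was 6.71 to 8.78 on BRSST+sgEzh2 arrays, 6.59 to 8.29 on BRSST+sgLuc arrays and 9.02 to 10.45 on sgLuc arrays, and 7 of 8 tested fell in BRSST+sgLuc against sgLuc. T and NK cell markers, 11 of 12 measured, had means of 6.16 to 8.36 on BRSST+sgEzh2 arrays, 6.17 to 7.72 on BRSST+sgLuc arrays and 8.04 to 8.50 on sgLuc arrays, and 7 of 8 tested fell in the same comparison. Within BRSST+sgLuc, replicate 2 was the highest array for B cell precursor markers (8.29) and for T and NK cell markers (7.72), where the other 4 arrays lay at 6.59 to 7.01 and at 6.17 to 6.41. All 8 tested markers of each of these lists had a higher mean in BRSST+sgEzh2 than in BRSST+sgLuc, and 0 passed there. Granulocyte precursor markers, 8 of 8 measured, had means of 11.73 to 11.95 on BRSST+sgEzh2 arrays, 11.65 to 11.95 on BRSST+sgLuc arrays and 11.55 to 11.64 on sgLuc arrays, and 4 of 8 rose in BRSST+sgLuc against sgLuc. Mature neutrophil markers, 10 of 10 measured, had means of 12.48 to 12.73 on BRSST+sgEzh2 arrays, 12.37 to 12.51 on BRSST+sgLuc arrays and 12.78 to 12.94 on sgLuc arrays, and 5 of 10 fell in BRSST+sgLuc against sgLuc. Monocyte and macrophage markers, 9 of 10 measured, had means of 9.96 to 10.66 on BRSST+sgEzh2 arrays, 9.26 to 10.12 on BRSST+sgLuc arrays and 10.31 to 10.48 on sgLuc arrays. In BRSST+sgLuc against sgLuc 6 of these 9 fell and 1 rose, and in BRSST+sgEzh2 against BRSST+sgLuc 1 rose. BRSST+sgLuc replicates 2 and 3 had monocyte means of 10.03 and 10.12, against 9.26 to 9.40 on the rest of that group. Stem and progenitor markers, 10 of 10 measured, had means of 7.86 to 8.55 on BRSST+sgEzh2 arrays, 7.58 to 8.14 on BRSST+sgLuc arrays and 7.83 to 8.03 on sgLuc arrays. In BRSST+sgLuc against sgLuc 1 of 6 tested stem and progenitor markers fell and 0 rose. The part of all these markers in the values of the replication genes was not tested.

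Genes of the same pathway outside the set, from a list of 51 of which 47 were tested, had 1 rise and 6 falls in BRSST+sgLuc against sgLuc, 14.9% of those tested, where 22.5% of all genes passed. Their median log2 difference was 0.06, against 0.01 over all genes. Dck, the deoxycytidine salvage kinase, had log2 signals of 7.71, 8.05, 7.97 and 8.07 in BRSST+sgEzh2 marrow, 7.72, 7.62, 8.18, 7.74 and 7.41 in BRSST+sgLuc marrow and 8.84, 9.09, 9.03 and 9.22 in sgLuc marrow. Every sgLuc array lay above every other array. Dck fell by 1.31 ± 0.14 or 2.48-fold (limma adjusted p = 7.06e-05). Samhd1, an enzyme that breaks down deoxynucleotides, gave 11.01, 10.81, 10.93 and 11.38 in BRSST+sgEzh2 marrow, 10.32, 10.59, 10.55, 10.12 and 10.21 in BRSST+sgLuc marrow and 11.56, 11.46, 11.50 and 11.54 in sgLuc marrow. The 3 groups did not overlap, with BRSST+sgLuc lowest and BRSST+sgEzh2 between it and sgLuc. Samhd1 fell by 1.16 ± 0.13 or 2.23-fold in BRSST+sgLuc against sgLuc (limma adjusted p = 8.35e-05). Cdc7, a kinase that triggers origin firing, fell by 0.94 ± 0.22 (limma adjusted p = 0.0084), and Cdca7, a partner of a chromatin remodeller, by 0.61 ± 0.17 (limma adjusted p = 0.0212). The rise was that of Pole3, a histone-fold subunit of the leading strand polymerase, by 0.60 ± 0.10 (limma adjusted p = 0.00163). Cdca7 lost its call without sgLuc replicate 2 (0.0728) or 4 (0.0554) and with the Y-linked signal as a covariate (0.0736) or the replicate block (0.0683), while Dck, Samhd1, Cdc7 and Pole3 kept theirs in all 9 fits without 1 array.

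In BRSST+sgEzh2 against BRSST+sgLuc, Samhd1 was the only gene of that list to pass in the main fit. Cdca7 was higher and passed without BRSST+sgLuc replicate 3 (0.0155), and Cdc7 was higher and passed with array quality weights (0.0424). Samhd1 had a rise of 0.67 ± 0.13 or 1.59-fold (limma adjusted p = 0.0307). The call ended when replicate 1, 3 or 4 of BRSST+sgEzh2, or 1, 4 or 5 of BRSST+sgLuc, was left out (adjusted p of up to 0.104), and with only these groups fitted (0.144), array medians set equal (0.0654) or the replicate block (0.12). Against sgLuc, BRSST+sgEzh2 marrow had lower Dck by 1.10 ± 0.15 (limma adjusted p = 0.000494) and lower Samhd1 by 0.49 ± 0.14 (limma adjusted p = 0.0423), while Pole3 was higher by 0.39 ± 0.11 (limma adjusted p = 0.0395). The Samhd1 and Pole3 calls were thin, as Samhd1 kept its own without BRSST+sgEzh2 replicate 4 and Pole3 without BRSST+sgEzh2 replicate 3, and neither did without any other array of these groups (adjusted p of up to 0.134 and 0.118). With no filter or with the replicate block both missed the threshold (0.0544 and 0.0792 for Samhd1, 0.0526 and 0.0506 for Pole3). Samhd1 missed it with equal array medians too (0.058), and Pole3 with quantile normalization (0.0749) and a trended variance (0.055).

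Of 22 measured E2F, cyclin and pocket protein genes, 1 rose and 3 fell in BRSST+sgLuc against sgLuc, with a median of -0.16. That is 18.2% of the list, where 22.5% of all genes passed. Tfdp2, the DNA-binding partner of E2F proteins, rose by 0.71 ± 0.17 (limma adjusted p = 0.00928). Rb1, the retinoblastoma protein that restrains E2F, fell by 0.57 ± 0.18 (limma adjusted p = 0.034), Ccnd3, a D-type cyclin, by 0.52 ± 0.15 (0.0202) and Skp2, a subunit of the ubiquitin ligase that clears cell cycle inhibitors, by 0.50 ± 0.15 (0.0298). Rb1 lost its call without BRSST+sgLuc replicate 1 or 4 or sgLuc replicate 1, 2 or 4 (adjusted p of up to 0.104), with only these groups fitted (0.0549) or with equal array medians (0.0524), and Skp2 without BRSST+sgLuc replicate 2 or 4 or any sgLuc array (up to 0.0887). The Skp2 call also ended with equal array medians (0.0502), the replicate block (0.0665), only these groups (0.0636) or the Y-linked covariate (0.0908). Ccnd3 lost its call without sgLuc replicate 1 (0.0605) and with the Y-linked covariate (0.0838), and Tfdp2 kept its own in all 9 fits. No gene of this list passed in either comparison of BRSST+sgEzh2 in the main fit. At an unadjusted p under 0.05 limma had 1 against BRSST+sgLuc (1472 of 10601 genes did) and 5 against sgLuc (2575 of 10601). With only these groups fitted, Ccnd3 (lower, 0.0121), Rb1 (lower, 0.0418) and Tfdp2 (higher, 0.0356) passed against sgLuc, as did 17.2% of all genes. Skp2 passed against BRSST+sgLuc without BRSST+sgLuc replicate 3 (0.0368). Arrays of BRSST+sgEzh2 and sgLuc did not overlap for 40.9% of the list, against 23.3% of all genes.

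Mitosis and G2 genes, 28 of 30 measured, showed 5 falls and 0 rises in BRSST+sgLuc against sgLuc, with a median of -0.22. That is 17.9% of the 28, where 22.5% of all genes passed and 11.7% fell. Bub1b and Bub1, genes of the spindle checkpoint, fell by 1.29 ± 0.30 and 0.85 ± 0.25 (limma adjusted p = 0.00853 and 0.0238). Top2a, the topoisomerase that untangles sister chromatids, fell by 0.74 ± 0.20 (0.0174) and Ttk, a checkpoint kinase, by 0.61 ± 0.18 (0.0268). Bub1b kept its call in all 9 fits without 1 array, and Top2a lost its own without sgLuc replicate 4 (0.055) and with the Y-linked covariate (0.109) or the replicate block (0.0673). Calls of Bub1 and Ttk ended without BRSST+sgLuc replicate 1 or 4 or sgLuc replicate 2 or 4 (up to 0.0734 for Bub1 and 0.0926 for Ttk), that of Bub1 also without sgLuc replicate 1 (0.0546), and that of Ttk also with the replicate block (0.0579) or the Y-linked covariate (0.0996). The mean of the 28 genes was 9.53 to 10.12 on BRSST+sgEzh2 arrays, 9.28 to 10.14 on BRSST+sgLuc arrays and 9.96 to 10.22 on sgLuc arrays. Replicate 2 was again the lowest BRSST+sgLuc array, at 9.28, where the replication genes also had their lowest mean. In BRSST+sgEzh2 the lowest array was replicate 3 in both sets. No mitosis gene passed in either comparison of BRSST+sgEzh2 in the main fit. At an unadjusted p under 0.05 limma had 1 against BRSST+sgLuc (1472 of 10601 genes did) and 3 against sgLuc (2575 of 10601). With only these groups fitted, Bub1b was lower than in sgLuc and passed (0.0414). With array quality weights Bub1b (0.00375), Bub1 (0.0197), Top2a (0.0168) and Nusap1 (0.0253) were lower and passed against sgLuc, where 28.1% of all genes passed.

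With BRSST+sgLuc replicates 2 and 3 left out together, a setting chosen after seeing the data, 6 members passed against sgLuc, 16.2% of 37, where 28.4% of all genes passed in that fit. Cdt1, Chaf1b, Rpa2 and Tk1 were higher, with Rpa2 at 0.51 (limma adjusted p = 0.00676) and Tk1 at 0.39 (0.0283). Pola1 (-0.92, 0.000427) and Rfc2 (-0.42, 0.0138) were lower. Gmnn (0.102) and Orc6 (0.0676) no longer passed. In BRSST+sgEzh2 against BRSST+sgLuc, Pola1 then passed at 0.74 (0.00537), 1 of 37 members, where 9.37% of all genes passed. The ring genes did not pass in that fit, at -0.134 (Mcm2), -0.13 (Mcm3), -0.306 (Mcm4), -0.11 (Mcm5) and -0.102 (Mcm6).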

How the data were processed

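Bone marrow RNA was measured on 13 Affymetrix arrays. Log2 signals were deposited, which the authors obtained with oligo in R 3.5.01 (per the submitters' processing notes). How background was corrected and arrays normalized, and which oligo version was used, is not stated in the sources, and the log2 scale was read from the values. Precision is limited by the number of arrays, which have no read depth.

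Of 22203 rows, 19572 had 1 gene symbol in GEO's platform annotation, 0 had several and 2631 had none. Entrez numbers were looked up in a RefSeq table of GRCm38.p6, and 0 symbols changed. The row of highest mean stood for each of the 55 symbols, of 19505, that had several. Testing was limited to the 10601 genes above the array median on 4 or more arrays. Groups, taken from the labels, were compared with limma 3.58.1 (lmFit and eBayes) in R 4.3.3, in 1 fit of 13 arrays with no covariate, and p-values were adjusted by Benjamini-Hochberg over these genes at a threshold of 0.05. Every adjusted p is from limma. Standard errors in that fit share 1 spread per gene over the 3 groups, although BRSST+sgLuc arrays varied more. The procedure was tested on simulated data with the same spread in every group, which says nothing of the unequal spread here. Python 3.11.15 with matplotlib 3.10.9 drew the figures.

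The members, the other gene lists and the tests were chosen with earlier results of these data known. Values of every array are given for Mcm2 to Mcm6, E2f1, Ccne1, Ccne2, Pcna, each member past the threshold in a comparison, and the 4 of smallest p where none passed. From other lists the up to 4 largest differences past the threshold are named per comparison. Pole3, the single rise of its list, lies outside that rule and was named after its values were seen. Alternatives were no filter, a stricter filter (the 75th percentile), quantile normalization, equal array medians, array quality weights, the mean over rows of a gene, the replicate number as a block, a trended and robust variance, only the compared groups, a Y-linked covariate, a threshold of 0.01 and each array left out. Added after seeing the data was a fit without BRSST+sgLuc replicates 2 and 3. Rows without a symbol were left out.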

Additional observations from a re-analysis of the deposited data

Results flagged for a closer look

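In 7 of 111 combinations of a gene and a group, a single array stood far from the others of its group by Dixon's criterion, which marks about 1 in 20 groups by chance, so this number is near what chance gives. The array was high for Mcm5 in BRSST+sgEzh2 replicate 2 (log2 signal 11.16, next array 10.84) and for Tyms on the same array (10.54, next 10.22). It was low for Slbp in BRSST+sgEzh2 replicate 4 (10.35, next 10.56), for Rpa2 in BRSST+sgLuc replicate 2 (9.10, next 9.86), for Mcm4 in sgLuc replicate 3 (9.04, next 9.57), for Chaf1a on the same sgLuc array (9.56, next 9.65) and for Tk1 in sgLuc replicate 2 (8.18, next 8.30). Without BRSST+sgLuc replicate 2, Rpa2 passed between BRSST+sgLuc and sgLuc, at 0.55 on the log2 scale (limma adjusted p = 0.00315).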

How the results depend on the processing

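Over all genes, limma called 83 between BRSST+sgEzh2 and BRSST+sgLuc. The count was 128 with no filter, 36 with a stricter filter, 55 with equal array medians, 1039 with array quality weights, 17 with only these groups fitted, 18 at an adjusted p of 0.01, 22 to 377 with 1 array left out (22, 36 and 47 without BRSST+sgEzh2 replicates 4, 1 and 3, and 29, 257, 377 and 34 without BRSST+sgLuc replicates 1, 2, 3 and 4) and 993 without BRSST+sgLuc replicates 2 and 3. Members called stayed at 0 except for 1 (Pola1) without those 2 arrays together, and 0 to 1 with 1 array left out. Between BRSST+sgLuc and sgLuc the count of 2389 genes was 4879 with weights, 1102 at 0.01 and 1481 (sgLuc replicate 1) to 2839 with 1 array left out. The 4 members became 2 with no filter, 10 with weights, 1 with only these groups, 0 at 0.01 and 0 to 6 with 1 array left out. With no filter 5.41% of members passed, where 11.9% of all genes did. With weights these shares were 27% and 46%, and with only these groups 2.7% and 18.9%. Between BRSST+sgEzh2 and sgLuc the count of 993 was 2976 with weights, 1822 with only these groups, 398 at 0.01 and 519 to 839 with 1 array left out (519 and 588 without sgLuc replicates 1 and 2, 610 and 597 without BRSST+sgEzh2 replicates 1 and 2). The 0 members became 4 with weights (Cdt1, Gmnn, Rfc2 and Rpa2) and 1 with only these groups (Rpa2). That is 10.8% and 2.7% of members, where 28.1% and 17.2% of all genes passed. The members' median log2 difference ranged, with 1 array left out, from -0.027 to 0.210 in BRSST+sgEzh2 against BRSST+sgLuc, from -0.152 to 0.047 in BRSST+sgLuc against sgLuc and from -0.016 to 0.105 in BRSST+sgEzh2 against sgLuc, so that its sign turned in each comparison. Over 111 member differences and 2119 alternative values, 141 changed sign, with a smallest adjusted p of 0.441 among them, and 0 called values did. Causes were not tested.

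The labels do not say whether replicate numbers pair the samples. Same-numbered arrays had deviations from their group means correlated at -0.18 to 0.19. With so few arrays a group, such correlations cannot show or exclude a pairing. In BRSST+sgEzh2 against sgLuc, replicates 1 to 4 gave -0.11, 0.12, 0.19 and 0.15. With the replicate block limma called 28 genes and 0 members between BRSST+sgEzh2 and BRSST+sgLuc, 2546 and 3 (Gmnn, Gins1 and Rfc4) between BRSST+sgLuc and sgLuc, and 1016 and 0 between BRSST+sgEzh2 and sgLuc. With 4 or 5 arrays a group, the 95% intervals of members had median half-widths of 0.40 to 0.42 on the log2 scale.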
